A study of Mus musculus with 6 samples.

Results

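Interferon-stimulated genes are the genes that cells switch on when interferons, the secreted antiviral alarm proteins, reach their receptors. A list of 37 such mouse genes, from the transcription factors of the response to its antiviral effectors, was followed in heart muscle after ethanol. A gene was taken where the symbol in its identifier equalled a listed symbol. Each of the 37 matched 1 row of the 55487 genes in the files, and 36 had enough counts to be tested (Oas3 did not). The study profiled the left ventricle of male C57BL/6 mice by bulk RNA sequencing, under a title on alcoholic cardiomyopathy, the heart failure seen in long-term heavy drinkers. The ET group was fed 5% ethanol in the diet for 10 days before 1 gavage of ethanol. The CONT group was fed an isocaloric diet before 1 gavage of maltose-dextrin. All were wild type, entered at 8 weeks of age, and their tissue was taken 9 h after the gavage. Each group had 3 libraries. Whether these are separate mice is not in the labels, so a p-value here reflects spread among the libraries that could be technical.

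Type I interferons signal through JAK kinases to a complex that includes Stat2 and Irf9 and binds the interferon-stimulated response element, a short DNA motif built from repeated GAAA blocks. Interferon gamma acts through a second motif, the gamma-activated sequence, and the Irf1 gene is a known target. In the heart, endothelial cells and macrophages are among the cells known to respond to interferon, and heart muscle cells do so during viral myocarditis.

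The libraries held 28838386 to 37762233 expected counts, estimates of reads per gene, and mitochondrially encoded genes took 27.8% to 31.9% of them. Cardiomyocyte markers were high in every library (summed TPM of 10 markers 49368 to 52080 in CONT and 36534 to 46212 in ET), as the tissue label says. TPM is a level corrected for gene length and library depth. Some libraries stood apart. The 5 atrial markers, which a ventricle should hold at a low level, summed to 14450 TPM in ET replicate 1 and 2097 in CONT replicate 3, against 72.4 to 471 in the other 4. The effective length that the quantification gave the abundant gene Myh6, a cardiac myosin, was 1309 to 1365 bases in CONT replicates 1 and 2 and ET replicate 1, and 2061 to 2370 in CONT replicate 3 and ET replicates 2 and 3. These are called the first and second library set below. The labels name no batch.

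The motifs can be read in the promoters of the members. RefSeq promoters on GRCm38.p6, running from 250 bases before to 50 bases after a start, were found for 26 of the 37 genes (30 promoters). The response element core GAAANNGAAA, or TTTCNNTTTC on the other strand, where N is any base, was in 15 of these 30 promoters (50%), each of a different gene, against 3.44% of all 32851 promoters. The gamma-activated core TTCNNNGAA, which reads the same on both strands, was in 7 of 30 (23.3%), against 8.30% of all. Both were in 4 (13.3%), those of Bst2, Gbp7, Igtp and Oas1a, against 0.454% of all. A match is a description of these letters and not a measured binding site. The 7 stretches below show the matches in single, paired and overlapping form. They lie just before the start, and capitals mark the matches. Bases that a GENCODE vM21 transcript already includes were left out.
Isg15, minus strand of chr4:156200819-156200938, with 3 response element matches that overlap:
Isg15: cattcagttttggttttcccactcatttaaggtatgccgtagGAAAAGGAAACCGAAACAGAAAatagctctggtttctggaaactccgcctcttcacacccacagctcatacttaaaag
Ifit1, plus strand of chr19:34640769-34640870, with 2 matches:
Ifit1: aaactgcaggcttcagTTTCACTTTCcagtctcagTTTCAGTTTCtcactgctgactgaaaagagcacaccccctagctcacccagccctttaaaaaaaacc
Ifit3, plus strand of chr19:34583369-34583528, with 2 matches:
Ifit3: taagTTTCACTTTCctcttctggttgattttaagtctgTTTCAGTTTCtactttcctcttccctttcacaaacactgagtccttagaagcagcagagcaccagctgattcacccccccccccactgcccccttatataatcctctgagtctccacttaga
Ifit3b, plus strand of chr19:34607767-34607956, with 2 matches at the same spacing:
Ifit3b: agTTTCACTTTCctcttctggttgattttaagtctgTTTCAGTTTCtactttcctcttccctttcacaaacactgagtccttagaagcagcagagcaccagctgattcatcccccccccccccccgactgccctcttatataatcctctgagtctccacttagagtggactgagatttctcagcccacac
Gbp3, plus strand of chr3:142559924-142560025, with 2 matches that overlap:
Gbp3: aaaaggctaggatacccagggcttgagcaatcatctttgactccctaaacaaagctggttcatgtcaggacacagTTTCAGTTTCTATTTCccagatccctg
Igtp, plus strand of chr11:58199436-58199555, with a gamma-activated match followed by a response element match:
Igtp: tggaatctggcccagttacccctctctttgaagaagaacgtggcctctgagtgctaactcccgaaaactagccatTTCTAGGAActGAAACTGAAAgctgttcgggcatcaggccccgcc
Irf1, plus strand of chr11:53769894-53770013, with a gamma-activated match alone:
Irf1: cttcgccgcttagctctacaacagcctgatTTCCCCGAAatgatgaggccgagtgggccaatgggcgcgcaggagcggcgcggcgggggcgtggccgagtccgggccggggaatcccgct

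The shown stretches of Ifit3 and Ifit3b share a run of 109 identical bases, and the genes are close copies. RSEM divides reads that both could give, so the split between this pair is uncertain. The same holds for Oas1a among its paralogs. Neither motif was found in the windows of Cmpk2, Ifi44, Ifi47, Irf7, Irf9, Oasl1, Oasl2 and Xaf1, which says only that these letters are not in those windows. Promoters of Dhx58, Ifi27, Ifi27l2a, Iigp1, Mx1, Mx2, Oas2, Parp14, Rtp4, Usp18 and Zbp1 were not analysed here.

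The members were expressed at a low to moderate level in the ventricle. Their mean TPM over the 6 libraries ran from 0.085 (Oas3) to 49.0 (Ifi27l2a) with a median of 5.01. It was under 1 in 4 genes, from 1 to 10 in 26 and 10 or more in 7. Oas3, the largest of the oligoadenylate synthetases, lay between 0.01 and 0.20 TPM. Mx1, a dynamin-like antiviral GTPase that is known to be defective in C57BL/6 mice, had 0 counts in ET replicate 3, where 3 counts would be 0.0976 CPM (counts scaled to the library size after the TMM factor described below, and not to gene length).

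In the comparison of ET with CONT, which asks what ethanol feeding with a binge does to the ventricle, 0 of the 36 members passed edgeR's quasi-likelihood test at a Benjamini-Hochberg adjusted p under 0.05. That was so for 0% of all 15727 genes tested, and the members' adjusted p ran from 0.585 to 0.991. At an unadjusted p under 0.05 there were 0 members in either direction, against 4.46% of all genes lower and 4.19% higher in ET. DESeq2 and limma-voom also called 0 members, against 184 and 0 of all 15727 genes. Both gave 0 members at an unadjusted p under 0.05. Over all genes DESeq2 gave 764 lower and 867 higher at that threshold, and limma-voom gave 721 and 556. The fitted log2 fold change of ET over CONT was below 0 in 32 of 36 members and above 0 in 4, against 48.1% of all genes below 0. Its median was -0.41, beside 0.01 over all genes. With RLE factors, upper-quartile factors or library totals in place of the TMM scaling used here, the members' median was -0.39, -0.44 and -0.24.

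Every member's 95% interval held 0, and in 33 of 36 it also reached -1, a halving, or beyond, so the spread between libraries left wide limits on each gene. Group values separated in 1 member, Ifi35, which binds Nmi in a complex of interferon-induced proteins. Its CPM was lower in all ET libraries, as 8.36% of all genes were, with a log2 fold change of -0.28 ± 0.16 (SE; adjusted p 0.611, edgeR). Of its exon bases 16.8% overlap Gm11626 on the opposite strand, and the use of strand is not given in the sources used here. On the TPM scale the libraries of Ifi35 overlapped, with 8.05 to 14.6 in ET and 10.9 to 13.0 in CONT.

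**Figure D1:**
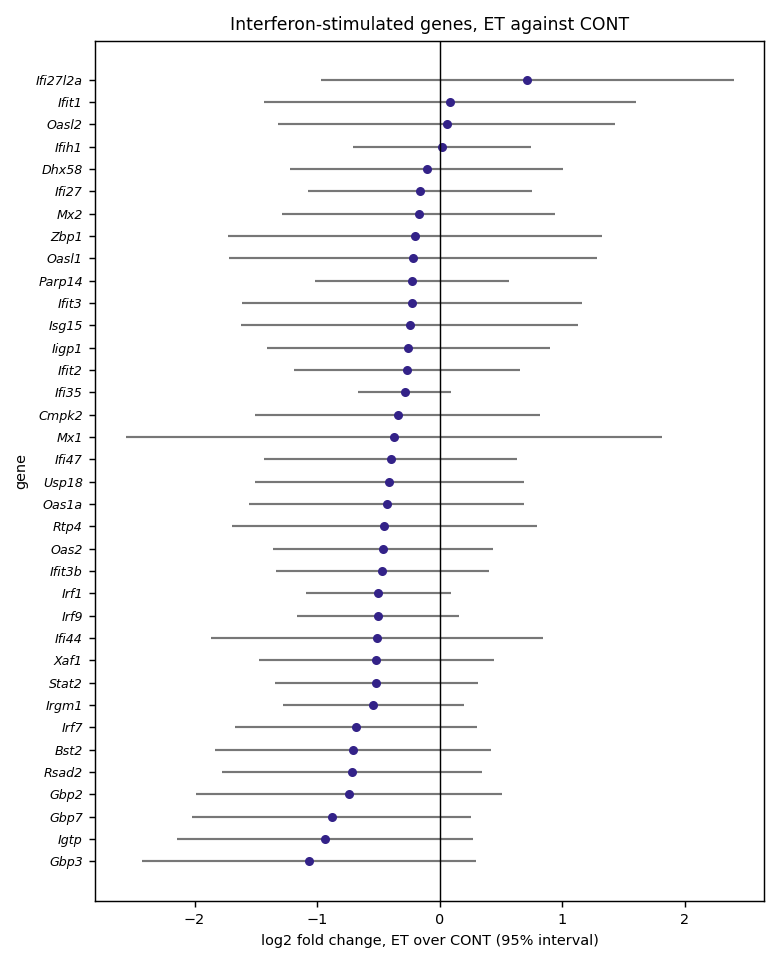
Fitted log2 fold change of ET over CONT (x axis) for the 36 tested members (y axis), with points for the estimate and lines for the 95% interval from edgeR (3 libraries per group). Of the 36 points, 32 lie left of 0, and every line crosses 0.

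The members varied together among the libraries more than between the groups. ET replicate 3 had the lowest CPM of the 6 libraries in 34 of 36 members, against 25.4% of all genes. The exceptions were Ifih1, lowest in CONT replicate 3, and Iigp1, lowest in ET replicate 1. The CPM of ET replicate 3 was a median of 39.3% of the median of the other 5 libraries, and it was under 50% in 28 of 36. CONT replicate 3 and ET replicate 3 were the 2 lowest libraries in 26 of 36 members, against 11.7% of all genes. CONT replicate 2 was the highest in 21 of 36, against 16.1% of all genes. The mean log2 CPM of the members, less each gene's own mean, was 0.40, 0.69 and -0.37 in CONT replicates 1 to 3. It was 0.25, 0.14 and -1.11 in ET replicates 1 to 3, so that CONT replicate 3 lay below both other ET libraries.

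**Figure D2:**
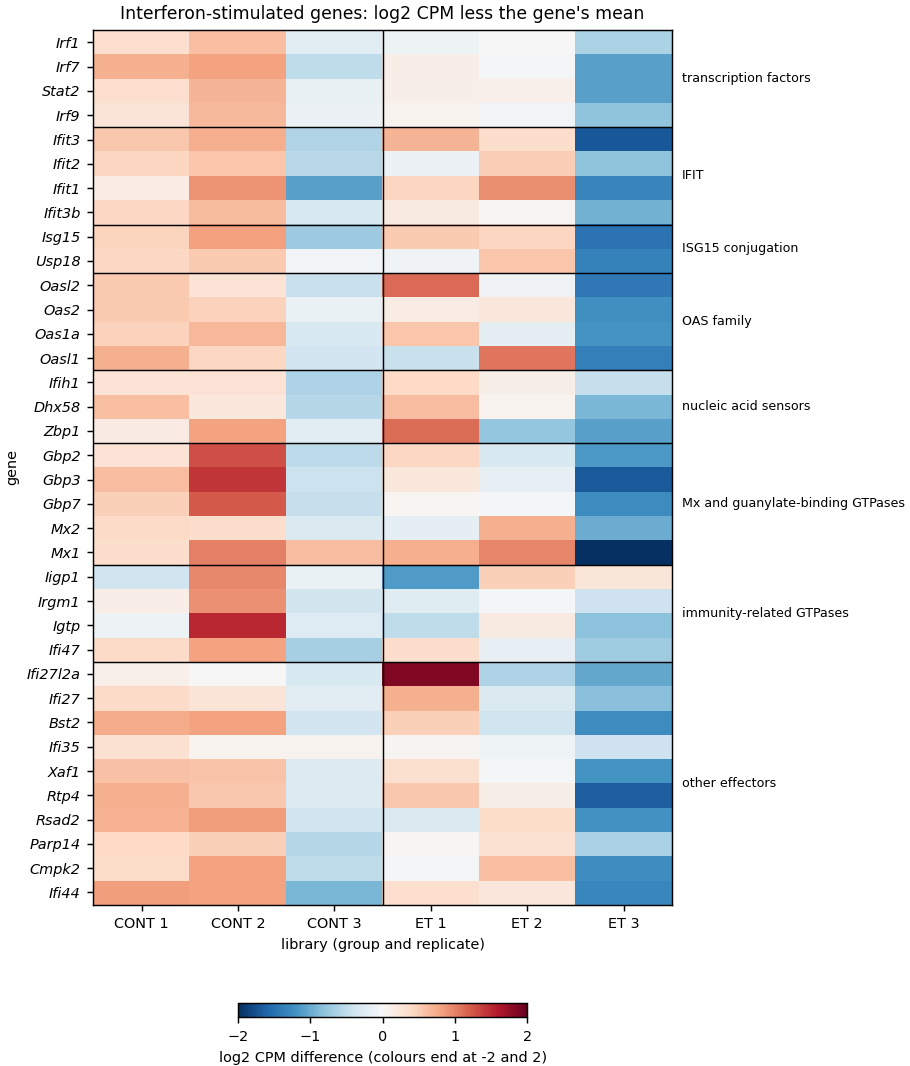
Each row is a tested member, grouped by role, and each column a library; colour shows log2 CPM less the gene's mean over the 6 libraries, ending at -2 and 2. The column of ET replicate 3 is the lowest in 34 of 36 rows, CONT replicate 3 is below the row's mean in 34, and CONT replicate 2 is above it in 36.

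The transcription factors of the response followed this order. Irf1, which drives genes of the gamma response, was at 16, 16.3 and 10.4 TPM in CONT replicates 1 to 3 and at 13.7, 13.0 and 7.88 in ET replicates 1 to 3. Replicate 3 of each group was its lowest library, and the groups overlapped because CONT replicate 3 lay below 2 ET libraries. Its log2 fold change of -0.50 ± 0.25 (SE) had the lowest p of the members (0.0851, adjusted 0.585, edgeR). Irf7, which amplifies type I interferon production, stood at 9.69, 12.5 and 5.22 TPM in CONT and 8.89, 7.75 and 3.30 in ET (-0.68 ± 0.42 in log2 CPM, adjusted p 0.634, edgeR). Irf9, the DNA-binding part of the type I complex, had 6.58, 8.06 and 5.41 TPM in CONT and 8.60, 5.85 and 3.15 in ET. In Irf9 the highest and the lowest library were both ET on the TPM scale. Stat2, its partner, was the fourth, and all 4 factors had estimates below 0 (-0.68 to -0.50) with their lowest value in ET replicate 3.

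The IFIT proteins bind foreign RNA and block its translation, and their 4 genes lie together on chromosome 19 from 34550694 to 34650009 (GRCm38). Ifit3, the most abundant of them, was at 7.41, 8.10 and 3.81 TPM in CONT and at 10.9, 7.65 and 1.65 in ET, which gives 6.44 ± 2.30 and 6.72 ± 4.67 (mean ± SD, n = 3). Its ET libraries spanned the whole CONT range. Ifit2 ran 4.16, 4.17 and 2.29 TPM in CONT and 3.61, 5.16 and 1.78 in ET. Ifit3b lay between 0.91 and 2.53 TPM in ET and 1.55 and 2.51 in CONT. The fitted log2 fold changes were -0.23 ± 0.59 for Ifit3 and -0.26 ± 0.39 for Ifit2, and 3 of the 4 IFIT estimates were below 0. Ifit1 was the exception at 0.08 ± 0.64. Values of Ifit1 went from 0.71 TPM in ET replicate 3 to 3.82 in ET replicate 2, so both ends came from the same group.

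Isg15, a ubiquitin-like protein that is attached to other proteins, was at 5.52, 6.87 and 2.75 TPM in CONT and 7.66, 6.37 and 1.49 in ET (-0.24 ± 0.58, adjusted p 0.904, edgeR). Usp18, the protease that takes Isg15 off again and damps receptor signalling, was at 1.93, 1.78 and 1.73 TPM in CONT. Its ET values were 1.74, 2.31 and 0.56. On the TPM scale the CONT libraries of Usp18 differed little, and ET replicates 2 and 3 lay above and below them. In CPM its CONT libraries were at 3.04, 3.30 and 2.19, with replicate 3 again the lowest control. Its ET libraries were at 2.16, 3.35 and 0.879 CPM.

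Oligoadenylate synthetases sense double-stranded RNA and activate RNase L, which degrades RNA. Oasl2, a family member at chromosome 5 from 114896936 to 114912234, had 7.98, 5.66 and 4.39 TPM in CONT and 15.5, 5.82 and 2.41 in ET. ET replicate 1 was its highest library, 1.52 times the next in CPM, and ET replicate 3 its lowest. Oas2 was steadier, with 3.74, 3.38 and 2.60 TPM in CONT and 3.61, 3.36 and 1.33 in ET. The log2 fold changes were 0.06 ± 0.58 for Oasl2 and -0.46 ± 0.38 for Oas2. Of the 4 family members tested 3 had an estimate below 0, and all 4 were lowest in ET replicate 3.

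Among the nucleic acid sensors, Ifih1 (MDA5, a sensor of long double-stranded RNA) was at 2.77, 2.42 and 1.45 TPM in CONT and 3.54, 2.61 and 1.58 in ET. Dhx58 (LGP2, its regulator) was at 1.16, 0.88 and 0.77 in CONT and 1.90, 1.05 and 0.54 in ET. Both were highest in ET replicate 1 on this scale, and low in replicate 3 of each group. Their log2 fold changes, 0.02 ± 0.31 and -0.11 ± 0.47, were small beside their errors. Zbp1, a sensor of Z-form nucleic acid, was estimated at -0.20 ± 0.65.

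The guanylate-binding proteins and immunity-related GTPases among the members, known targets of interferon gamma that attack the vacuoles of parasites, peaked in 1 control library. All 7 (Gbp2, Gbp3, Gbp7, Igtp, Iigp1, Irgm1 and Ifi47) were highest in CONT replicate 2, as were 14 of the other 29 members. There the 7 stood at 1.34 to 2.5 times the next highest library in CPM, with a median of 1.71, beside a median of 0.986 over those 29. This split was chosen after its values were seen. Of the other genes of these families that were tested, Gbp4, Gbp5, Gbp9, Irgm2, Tgtp1 and Tgtp2 were also highest in CONT replicate 2. Gbp6 and Gbp10 were highest in ET replicate 2.

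Gbp2 was at 8.19, 15.8 and 5.30 TPM in CONT and at 12, 6.39 and 3.17 in ET. Gbp3 was at 6.79, 11.6 and 3.83 in CONT and 7.11, 4.98 and 1.36 in ET. Gbp7 was at 4.09, 6.65 and 2.27 in CONT and 3.92, 3.41 and 1.33 in ET. These 3 genes are neighbours on chromosome 3 (142530342 to 142638008), and CONT replicate 3 lay below 2 ET libraries in each. Their log2 fold changes were -0.74 ± 0.53, -1.07 ± 0.58 and -0.88 ± 0.48, with adjusted p of 0.666, 0.601 and 0.603 (edgeR). The estimate of Gbp3 was the lowest of all members. Without CONT replicate 2 the 3 estimates were -0.13, -0.52 and -0.39. Of the exon bases of Gbp7, 11.3% are shared with Gm43802.

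Igtp, which acts on the vacuoles of parasites, was at 5.05, 14.5 and 4.96 TPM in CONT and 4.99, 6.94 and 3.16 in ET. Irgm1, a regulator of the other immunity-related GTPases, was at 7.4, 12.1 and 5.88 in CONT and 7.53, 7.78 and 5.30 in ET. Iigp1, an effector of the same family, was at 9.21, 23.0 and 12.8 in CONT and 7.43, 19.9 and 15.1 in ET. Iigp1 was the member that did not share the low value of ET replicate 3: that library lay near the middle of its range, and replicate 1 of each group was the lowest. The log2 fold changes were -0.94 ± 0.51 for Igtp, -0.54 ± 0.31 for Irgm1 and -0.25 ± 0.49 for Iigp1. Without CONT replicate 2 they were -0.14, -0.12 and 0.28. Igtp shares 8.01% of its exon bases with Irgm2.

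The other effectors held the most abundant members. Ifi27l2a, a small interferon-induced membrane protein, was at 35.2, 31.5 and 30.2 TPM in CONT (32.3 ± 2.58, SD, n = 3). In ET it was at 156, 24.8 and 16.7 TPM. ET replicate 1 stood at 3.36 times the next highest library in CPM, while the other 2 ET libraries lay below all 3 CONT libraries. The fitted log2 fold change was 0.72 ± 0.71 with ET replicate 1 and -0.74 without it. Its neighbour Ifi27 on chromosome 12 (103434211 to 103440239) had 27.5, 24.1 and 20.9 TPM in CONT and 42.8, 19.4 and 11.8 in ET. Ifi27 showed the same layout, with 1 ET library above and 2 below the CONT range, and a log2 fold change of -0.16 ± 0.39.

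Of the 10 other effectors 9 had estimates below 0, and all 10 were lowest in ET replicate 3. Bst2 (tetherin, which holds budding virus on the cell) ranged from 6.00 to 27.7 TPM in ET and 12.1 to 25.8 in CONT (-0.71 ± 0.48). Rsad2 (viperin) ranged from 2.35 to 6.52 in ET and 3.87 to 6.71 in CONT (-0.71 ± 0.45). The remaining 5, Cmpk2, Rtp4, Xaf1, Parp14 and Ifi44, were estimated between -0.52 and -0.22. Of the exon bases of Rtp4, 13.9% are shared with Gm45338.

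**Figure D3:**
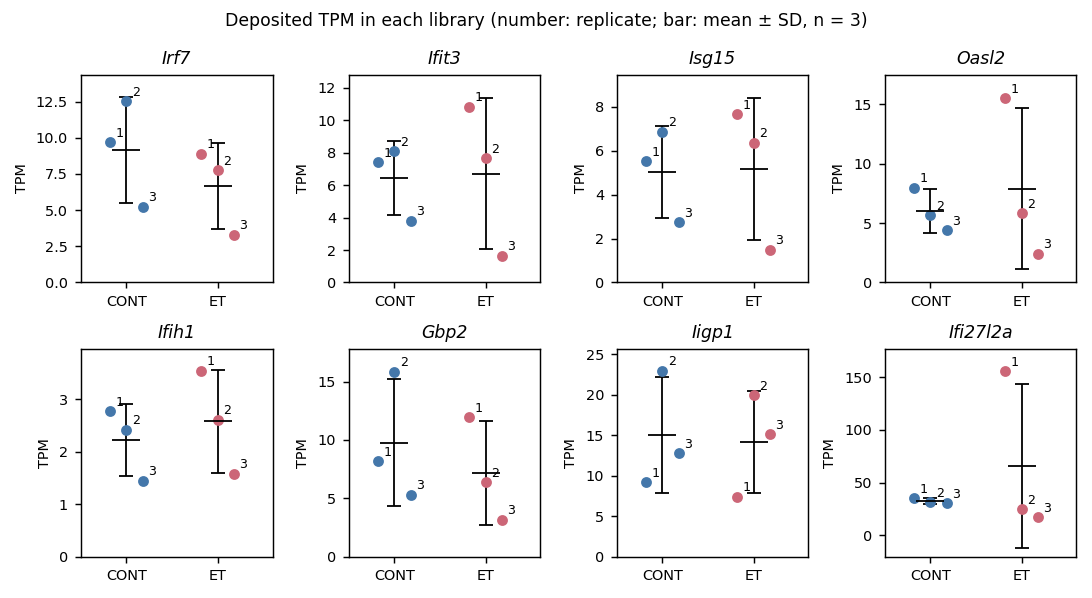
Deposited TPM (y axis) of 8 members in each library, with points numbered by replicate and bars for the mean ± SD of 3 libraries per group; each panel has its own scale from 0 or below. Replicate 3 is the lowest of its group in 7 of the 8 CONT panels and 7 of the 8 ET panels, all but Iigp1, and ET replicate 1 of Ifi27l2a stands at 156.

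Levels per length and scaled counts did not always order the groups alike. The tests used CPM scaled by TMM, a factor that aligns the bulk of the genes and was highest, 1.19, in ET replicate 1, whereas deposited TPM carries no such factor. By mean TPM, 25 of the 36 members were lower and 11 higher in ET. In a fit on log2(TPM + 1), 29 of 35 members were below 0, against 27.6% of all 14114 genes in that fit. For 7 genes the fold change fitted on CPM was below 0 while the mean TPM was higher in ET, as in Ifit3 and Isg15. With library totals in place of TMM these 2 were still fitted below 0 (-0.039 and -0.068), as were 29 of 36 members, against 35.0% of all genes. The part of the TMM factor in this disagreement was not tested. ET replicate 3 was the lowest library in 34 of 36 members on the TPM scale too.

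The group difference depended on which libraries entered. Without ET replicate 3 the median log2 fold change of the members was -0.10, with 22 of the 37 tested in that fit below 0, and without CONT replicate 2 it was -0.15. Without CONT replicate 3 it was -0.62 and without ET replicate 1 it was -0.66, each with 5 members at an unadjusted p under 0.05 (6.15% and 7.47% of all genes lower). With both left out the median was -0.85, and 2 members passed with lower values in ET: Bst2 (log2 fold change -1.52, adjusted p 0.0421, edgeR) and Ifi27l2a (-0.85, adjusted p 0.0492). In that fit 5.27% of all genes passed, 14 members were lower at an unadjusted p under 0.05 (12.4% of all genes), and 26 were lower without overlap (30.3% of all genes). It set CONT replicates 1 and 2 against ET replicates 2 and 3, which are the 2 library sets, so group and set cannot be told apart there.

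Within the first library set the members' median difference of ET replicate 1 from the mean of CONT replicates 1 and 2 was -0.35 in log2 CPM, with 28 of 36 below 0. Within the second set the difference of ET replicates 2 and 3 from CONT replicate 3 was -0.14, with 23 of 36 below 0. Over all genes these medians were -0.01 in both sets. A fit with a term for the set gave a median of -0.19 over the members, with 0 of 36 called and 26 of 36 below 0.

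The ligands themselves were almost absent at this depth. Of 21 interferon genes, 19 had 0 counts in every library, which allows up to 0.0800 to 0.112 CPM (3 counts; counting error only). Ifnab had 1 expected count in CONT replicate 1 and 1 in ET replicate 2, and Ifnz had 1.18 in CONT replicate 2. All 6 receptor genes were tested and 0 passed (median log2 fold change -0.15, 4 below 0). The type I receptor gene Ifnar1 was at -0.14 ± 0.14. Of 11 receptor signalling genes 0 passed and 7 had estimates above 0, such as Stat3 (0.43 ± 0.22, adjusted p 0.587, edgeR) and Jak2 (0.30 ± 0.14).

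Of 15 genes of upstream sensing and interferon induction that were tested, 0 passed and 10 had estimates above 0. Tlr4, the endotoxin receptor, was at 4.82, 3.93 and 6.98 CPM in CONT and 10.5, 8.94 and 10.0 in ET. All ET libraries of Tlr4 lay above all CONT libraries, at 0.90 ± 0.23 with an adjusted p of 0.478 (edgeR). Such a separation with ET higher was seen in 3 of the 15 genes, against 1084 of all 15727 genes. Mavs, the adaptor below Ifih1, was at 0.32 ± 0.27 and Tlr7 at 0.84 ± 0.37. Irf3 was at -0.29 ± 0.20, with its lowest CPM in ET replicate 3.

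A wider list of 56 other interferon-stimulated genes had 50 tested, of which 0 passed, 33 were below 0 and 17 above (median -0.17). Of these, 35 were lowest in ET replicate 3, against 25.4% of all genes. At an unadjusted p under 0.05 there were 8 lower and 1 higher, against 4.46% and 4.19% of all genes. The higher gene was Ifi207, of the PYHIN family (0.87 ± 0.19, adjusted p 0.452, edgeR). Cxcl9, a chemokine induced by interferon gamma, was at 5.56, 7.04 and 1.75 CPM in CONT and 1.41, 1.06 and 1.11 in ET. CONT replicate 3 lay near the ET libraries, and the log2 fold change was -2.0 ± 0.50 (adjusted p 0.478, edgeR). The abundant membrane protein genes Ifitm2 and Ifitm3, which block virus entry, were at 0.17 ± 0.31 and -0.05 ± 0.34.

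The antigen presentation genes, which interferon gamma also induces, all had estimates below 0 (17 of 17, median -0.80), and 0 passed. At an unadjusted p under 0.05 there were 10 lower, against 4.46% of all genes. In 9 the ET libraries were lower without overlap, against 8.36% of all genes. Psmb10, a subunit of the immunoproteasome, was at 32.2, 35.2 and 22.9 CPM in CONT and 18, 16.8 and 17.0 in ET. Every ET library of Psmb10 lay below every CONT library (-0.80 ± 0.18, adjusted p 0.452, edgeR). H2-Aa, a class II gene of antigen-presenting cells, was at 21.1, 27.2 and 13.6 CPM in CONT and 11, 9.20 and 6.87 in ET (-1.19 ± 0.28, adjusted p 0.478, edgeR). Here CONT replicate 3 was again the lowest control, and its gap to the ET libraries was kept. Mean log2 CPM of this list, less each gene's mean, was 0.46, 0.85 and -0.13 in CONT and -0.10, -0.34 and -0.75 in ET.

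**Figure D4:**
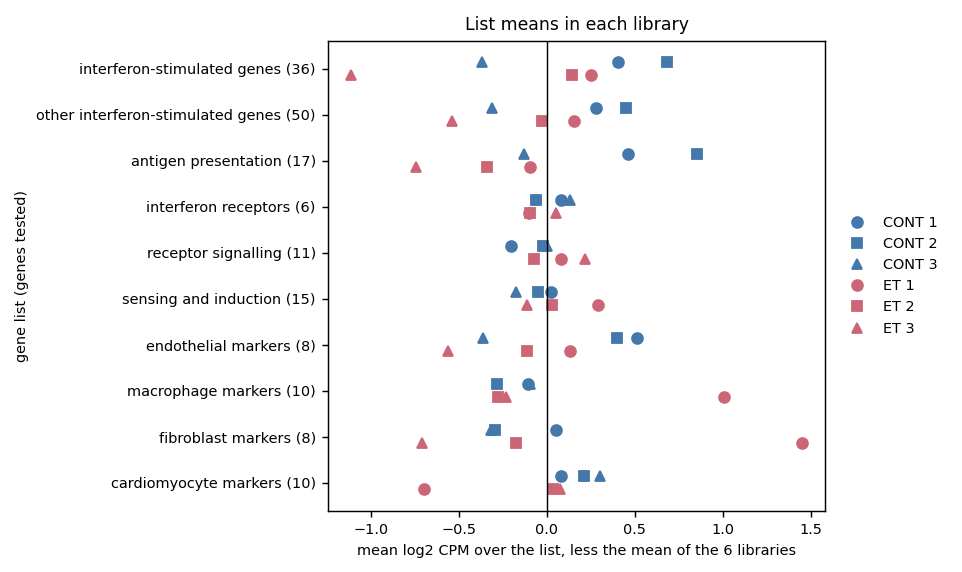
Mean log2 CPM of each gene list (y axis, number of genes tested in brackets) less its mean over the 6 libraries (x axis), with 1 point per library, circles, squares and triangles for replicates 1 to 3, blue for CONT and red for ET. The members run from 0.69 in CONT replicate 2 to -1.11 in ET replicate 3, and the endothelial markers from 0.51 in CONT replicate 1 to -0.56 in ET replicate 3. The fibroblast markers run from 1.45 in ET replicate 1 to -0.71 in ET replicate 3.

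Markers of cell types that could carry the response moved with some of these libraries. In bulk tissue, fewer cells of a type and less RNA per cell cannot be told apart. Endothelial markers (8 of 8 detected in all libraries) summed to 852 to 1377 TPM in CONT and 650 to 1259 in ET. In CPM, ET replicate 3 was lowest for 6 of 8 of them, 5 of 8 fibroblast and 3 of 10 macrophage markers. That was so for 25.4% of all genes. Macrophage markers (10 of 10) summed to 184 to 206 TPM in CONT and 178 to 538 in ET, and fibroblast markers (8 of 8) to 255 to 306 and 272 to 1007. The highest of both were in ET replicate 1, the library with the high Ifi27l2a. Pericyte and smooth muscle markers (7 of 7) were also highest there, at 551 TPM beside 183 to 251 in CONT. So were mesothelial markers (6 of 6), at 95.75 TPM beside 3.15 to 12.45 in CONT. Lymphocyte markers (5 of 12 with a count in every library) summed to 1.26 to 2.00 TPM in CONT and 0.69 to 1.70 in ET. Markers of monocytes and plasmacytoid dendritic cells (5 of 7) summed to 1.80 to 2.06 and 1.72 to 4.34, again highest in ET replicate 1.

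ET replicate 3, the library lowest in most members, also had the highest neutrophil and hepatocyte markers. Neutrophil markers (6 of 8 with a count in every library) summed to 94.2 TPM there, 5.43 and 18.4 in the other ET libraries and 2.41 to 15.0 in CONT. Hepatocyte markers (4 of 7) summed to 59.7 TPM there and to 0.73 to 6.07 in the other 5 libraries. No marker of these lists was at 0 in all libraries. The part of these marker lists in the members' values was not tested.

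The 10 genes whose log2 CPM over the 6 libraries was most like the mean of the members, among 11960 candidates, were Cox6a1, Ercc6, H2afz, Cdk6, Trim34a, Ehd2, Pfdn4, Rfng, Snrnp48 and Sox13, with Pearson coefficients from 0.984 to 0.995. Only Trim34a is on the pathway lists. The coefficient is a description over 6 libraries that share their depth and scaling, and genes are not independent replicates.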

How the data were processed

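Left ventricle RNA of 3 ET and 3 CONT libraries was sequenced from NuGEN Universal mRNA Plus libraries, per the labels' protocols. STAR 2.7.0f, RSEM 1.2.31 and the mm10 build are named in the submitters' processing notes. The authors deposited expected counts per gene (65.7% to 67.3% of nonzero values whole within 0.005) and, per the file headers, TPM and FPKM values in 1 file per library. Neither the annotation release nor a strand setting is given in the sources used here. Counts were rounded; genes were kept by filterByExpr (minimum count 10, minimum total 15); ET was compared with CONT by edgeR 4.0.16 (TMM, robust quasi-likelihood, two-sided, Benjamini-Hochberg over 15727 genes). The SE was the log2 fold change divided by the square root of F. FPKM served only to derive effective lengths. Within each role the 2 members of highest TPM, and the 5 members of lowest p, are given in full; of each other list, the 2 of lowest p and the 2 of highest TPM were eligible. 1 gene eligible by this rule is not reported here. Names beyond these, among them Ifi35, Bst2 and Rsad2, were chosen after their values were seen. The members, lists and tests were chosen with earlier results of these data known. Coordinates come from GENCODE vM21 (GRCm38) and promoters from RefSeq (GRCm38.p6). Replicate numbers follow the order of deposit. Alternatives were other scalings and filters, DESeq2 1.42.0, limma 3.58.1 (voom, and trend on log2 TPM + 1 or + 0.1), a library set term and fits without libraries. The script was tested on simulated data. R 4.3.3, Python 3.11.15 and matplotlib 3.10.9 were used.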

Additional observations from a re-analysis of the deposited data

How the results depend on the processing

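With 3 libraries per group and a common biological coefficient of variation of 0.297, single members had SEs of 0.16 to 0.93 (log2), so differences of 2-fold could not be told from the spread in most of them. No paired analysis was possible because the labels give the libraries no replicate numbers. Over 18 alternatives the members' median log2 fold change stayed below 0, from -0.85 to -0.10, and 599 of 645 fold changes kept their direction and their side of the threshold. Leaving out 1 library at a time gave 0 members called, 0 to 5 lower at an unadjusted p under 0.05 (1.68% to 7.47% of all genes), 1 to 16 lower without overlap (9.99% to 18.2% of all genes, the highest of each without CONT replicate 3) and a median of -0.66 to -0.10. When CONT replicate 3 and also ET replicate 1 were left out, 2 members were called (5.27% of all genes), 14 were lower at an unadjusted p under 0.05 (12.4%) and 26 lower without overlap (30.3%); Bst2 was at -1.52, Ifit1 at -0.34, Oasl2 at -0.98, Ifi27l2a at -0.85 and Ifih1 at -0.41. The number of members without overlap was 0 under upper-quartile factors, library totals, the filter of at least 1 CPM in 3 libraries, log2(TPM + 1) and log2(TPM + 0.1). Over all genes, in that order, 1687 of 15727, 742 of 15727, 1109 of 13242, 455 of 14114 and 455 of 14114 were lower without overlap. Those higher without overlap were 850, 1596, 973, 1830 and 1830. Scalings moved the median of all genes: library totals alone gave 0.12 over all genes and -0.24 over the members, log2(TPM + 1) gave 0.15 and -0.15, and log2(TPM + 0.1) gave 0.18 and -0.28. DESeq2 called 184 of all genes and log2(TPM + 0.1) 2, none of them members.

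The sign turned in 17 of the 36 genes under at least 1 alternative. Ifih1 was at -0.021 under upper-quartile factors. Under library totals Ifi27 was at 0.023, Dhx58 at 0.062 and Zbp1 at 0.016. With the library set term Ifit3 was at 0.16, Isg15 at 0.18, Ifi27 at 0.039, Ifi44 at 0.025, Dhx58 at 0.21 and Parp14 at 0.029. Oasl2 was at -0.20 with limma-voom, Mx2 at 0.041 and Dhx58 at 0.12 on log2(TPM + 1), and Dhx58 at 0.15 on log2(TPM + 0.1). With 1 library left out, Cmpk2 ran from -0.82 to 0.014, Dhx58 from -0.49 to 0.21, Ifi27 from -0.69 to 0.13, Ifi27l2a from -0.74 to 1.14, Ifih1 from -0.21 to 0.22 and Ifit1 from -0.40 to 0.63. Ifit2 ran from -0.64 to 0.00079, Ifit3 from -0.63 to 0.21, Iigp1 from -0.55 to 0.28, Isg15 from -0.57 to 0.16 and Mx1 from -0.90 to 0.19. Mx2 ran from -0.73 to 0.15, Oasl1 from -1.18 to 0.19, Oasl2 from -0.75 to 0.48 and Zbp1 from -1.25 to 0.16. The cause was not tested.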
